A study of Oryctolagus cuniculus with 27 samples.

Results

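The unfolded protein and integrated stress response genes are a set of 34 genes chosen by name for their place in these 2 pathways, and all 34 were found by symbol among the 31346 genes of the count tables. The set holds 14 chaperones and folding enzymes of the endoplasmic reticulum (ER), 3 stress sensors, 4 transcription factors, 4 genes of ER-associated degradation, and 9 targets of the integrated stress response. They were followed in 27 RNA sequencing libraries from male New Zealand rabbits labelled wild type. Animals ate normal chow, or food with 1% cholesterol plus vitamin D2 (ergocalciferol, 3500 IU per kg per day), a diet used to bring on aortic valve stenosis. The 16 aortic valve libraries were 4 of controls and 4 each after 2, 4 and 7 weeks of diet. The 5 ascending aorta libraries were 3 control and 2 diet, and the 6 of left ventricular myocardium were 3 control and 3 diet.

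The groups have limits as models. Each library is a piece of whole tissue, so a lower count from fewer cells of a type cannot be told apart from less RNA per cell. The age of the valve controls is uncertain, because 3 of their titles say 7 weeks and the other 2 weeks, while the description of the design speaks of controls at 2 and 4 weeks. For aorta and myocardium no duration is stated. By animal number, the 3 diet myocardium libraries came from animals of the 7-week valve group, and 1 diet aorta came from a 2-week valve animal. The library numbers run from 1 to 4 in the 7-week group and from 21 to 38 in the other valve groups. The labels do not say whether the 7-week libraries were sequenced separately, no within-batch value can be had, and in that case run and group cannot be told apart. Library numbers 21, 27, 28 and 29 each occur in valve and again in aorta or myocardium. The labels do not say whether the tissues were sequenced together, so run and tissue may not be separable either.

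When unfolded proteins build up in the ER, 3 sensors in its membrane respond. IRE1 (gene ERN1) splices the XBP1 message, PERK (EIF2AK3) phosphorylates the translation factor eIF2 alpha, and ATF6 travels to the Golgi and is cut to release a transcription factor. XBP1 and ATF6 raise chaperones and degradation genes, while eIF2 alpha phosphorylation, shared with the kinases that sense lack of amino acids, haem or viral RNA, slows translation and raises ATF4. ATF4 with CHOP (DDIT3) drives genes of amino acid supply, redox balance and cell death. Secretory cells such as the interstitial cells of valves, which make collagen and proteoglycan, use this machinery at rest. The steps of splicing, phosphorylation and cleavage cannot be read from counts per gene. Levels below are CPM (counts per 1000000), that is counts divided by the library total, and they are compared between samples and never between genes.

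Totals ran from 8.458 to 19.999 M counts in valve, from 11.510 to 16.107 M in aorta and from 13.954 to 17.322 M in myocardium. Myocardium and aorta carried markers of their main cells: 14 cardiomyocyte genes held 8.22 to 11.4% of counts in myocardium and 6 smooth muscle genes held 4.89 to 5.96% in aorta. The smooth muscle genes held 0.640 to 4.20% in valve. In valve, 8 genes of interstitial cells and fibroblasts held 0.856 to 3.12%. They held 1.22 to 1.70% in aorta, so this list does not set valve apart from aorta. Valve libraries also held cardiomyocyte counts, and their share differed between libraries from 0.156 to 4.54%. By CPM, some libraries were often the lowest or highest of their group over the stress genes. Of the 32 members at or above 1 CPM in all 7-week libraries, 22 were lowest in replicate 2, which also had the smallest total. Its TMM scaling factor in the test was 0.784, against 0.983 to 1.13 in the other 7-week libraries. CPM carry no such scaling, so they were low in that library for genes at large. After 4 weeks replicate 4 was lowest in 17 of 31, and among controls replicate 3 was lowest in 15 of 31. In aorta, diet replicate 1 was the higher of the 2 diet libraries in 24 of 30 members. The same counts over all genes were not made.

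Of the 34 members, 33 had enough counts to be tested in valve. SLC7A11, the cystine transporter of the redox arm, had 0 to 6 counts in any library and was tested in no comparison. In aorta 31 were tested, without TRIB3 and CHAC1, and in myocardium 31, without CHAC1 and PSAT1. Differences were tested with the two-sided quasi-likelihood F test of edgeR, and p-values were adjusted by Benjamini-Hochberg across every gene in the fit, with 0.05 as the limit for a call. Fold changes are log2 values ± SE. By the labels, within a tissue each library came from another animal. The 2 diet aorta libraries were very close in several marker shares. Immediate early genes held 0.0619 and 0.0624% of counts there and 0.0686 to 0.127% in control aorta. Endothelial genes held 0.00735 and 0.00733%, and 0.00733 to 0.0243% in control aorta. Whether these 2 libraries vary as separate animals do was not tested, so aorta SEs may be too small. Between tissues some animals are shared: 2 control animals and 3 diet animals gave both valve and myocardium, and 1 diet animal gave valve and aorta, so that joint fits of 2 tissues hold repeated animals.

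In the valve, the diet changed few of these genes against the controls. SDF2L1 rose at 7 weeks, and SESN2 rose from 2 to 4 and from 2 to 7 weeks. Between 2 and 7 weeks, 7 of 33 members changed, beside 26.7% of all genes: the integrated stress response targets SESN2, TRIB3 and VLDLR rose, and the chaperone HYOU1, the degradation genes EDEM1 and SYVN1 and the transcription factor ATF3 fell. None of these 7 calls was made with a score of cardiomyocyte markers as covariate, and VLDLR then changed sign, to -0.35. The cardiomyocyte share was 0.156 to 0.688% of counts at 2 weeks and 0.994 to 4.54% at 7 weeks. As these do not overlap, that fit cannot part heart muscle from time on the diet. No member passed the test in aorta or myocardium. The plot of levels by library shows the genes described below.

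**Figure D1:**
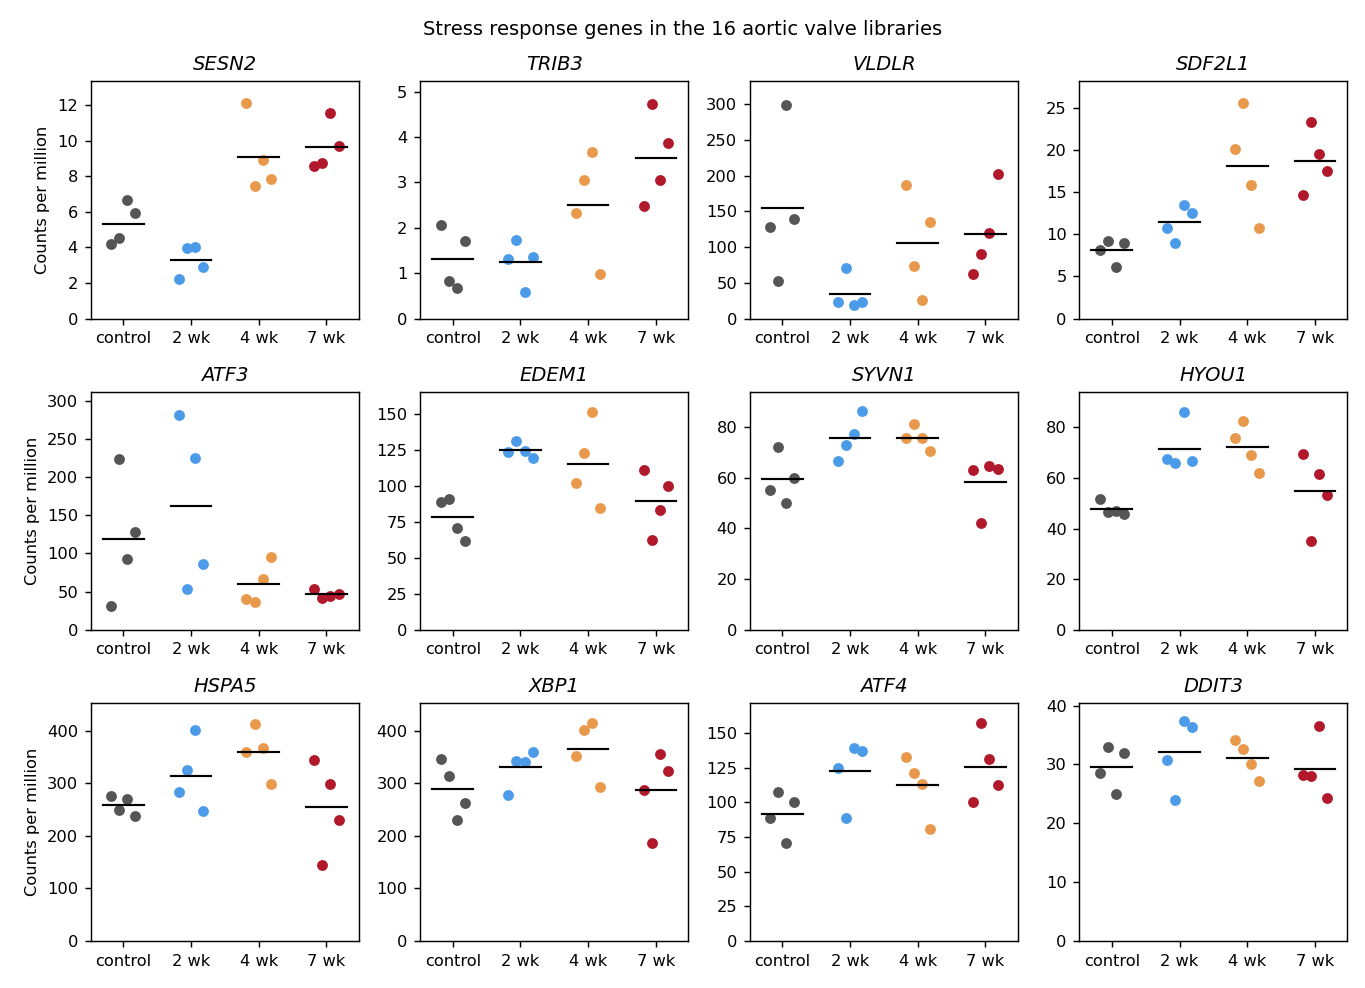
Level in CPM (vertical axis, from 0) of 12 stress response genes in each of the 16 valve libraries, by group (horizontal axis: control, 2, 4 and 7 weeks of diet). Points are libraries, 4 per group, and lines are group means; SESN2 lies between 2.24 and 4.04 at 2 weeks and between 7.46 and 12.1 at 4 and 7 weeks.

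After 2 weeks of diet no member passed the test against controls, and 0.0250% of all genes tested did. At an unadjusted p under 0.05 were 7 of 33 members, beside 2622 of 15973 genes. DESeq2 called 3 members, EDEM1 and HYOU1 as higher and VLDLR as lower. The share of all genes that DESeq2 called is not given here or below. Its counts of members therefore have no background beside them, and the shares given are those of edgeR. The members' median difference was 0.21, with 28 of 33 positive, while the median over all 15973 genes tested was 0.02. By role, the median was 0.27 over the 14 chaperones, of which 13 were positive, 0.35 over the 3 sensors, 0.27 over the 4 degradation genes and 0.05 over the 8 tested targets. Without 2-week replicate 3 the median over members was 0.13. The 14 cardiomyocyte markers had a median difference of -2.95 in the same comparison, none called, with 0.156 to 0.688% of counts at 2 weeks and 0.952 to 4.25% in controls. With the cardiomyocyte score of each library as a covariate, the median was 0.10 over members, with 25 of 33 positive, 0.08 over the chaperones, 0.11 over the sensors and 0.19 over the degradation genes. VLDLR then differed by 0.26 ± 0.48, the other direction. As the cardiomyocyte shares of the 2 groups do not overlap, this fit cannot part heart muscle from the diet.

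After 4 weeks no member passed, while 2.00% of all genes did. An unadjusted p under 0.05 was found in 5 of 33 members, beside 2040 of 15973 genes. DESeq2 called PDIA6 and SDF2L1 as higher. The median over members was 0.20, with 27 of 33 positive, against -0.03 over all genes tested, and all 14 chaperones had a positive difference with a median of 0.32. The groups did not overlap in 6 members, all with 4 weeks above control (HSPA5, HSP90B1, SDF2L1, HYOU1, MANF and SESN2), beside 6.29% of all genes in that direction.

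After 7 weeks 1 member passed, with a higher level, and 7.79% of all genes did, 5.20% with a higher level. DESeq2 called 4, which were SDF2L1, PDIA6, SESN2 and TRIB3, all higher. The members' median was -0.00, with 16 of 33 positive, against -0.01 over all genes, and without 7-week replicate 2 it was 0.11. The chaperone median was 0.12, with 9 of 14 positive. These 3 comparisons share the same 4 control libraries. The map of differences sets all comparisons side by side.

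**Figure D2:**
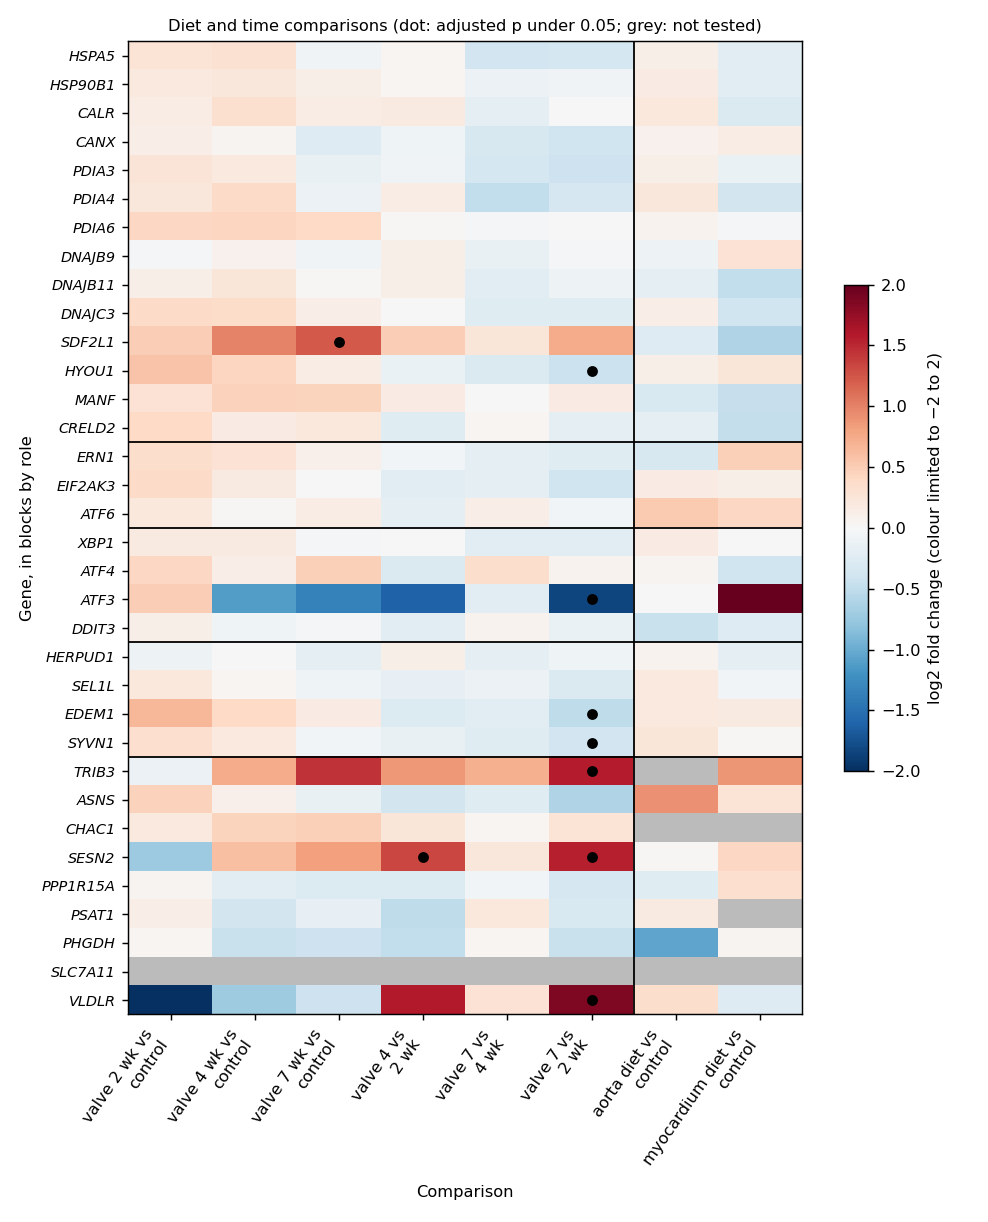
Log2 fold change (colour, limited to -2 and 2) of each of the 34 genes (rows, in blocks by role) in 8 comparisons (columns). Dots mark adjusted p under 0.05, which 9 cells carry, 8 of them in comparisons with 7 weeks; grey cells were not tested.

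Among the chaperones, SDF2L1 is a small ER protein that works with the HSP70 chaperone and its J-domain partners. Its level in controls was 8.12, 9.21, 6.15 and 9.02 CPM. After 2 weeks it was 10.8, 8.96, 13.5 and 12.5 CPM, after 4 weeks 20.1, 25.6, 15.8 and 10.8 CPM, and after 7 weeks 14.6, 23.3, 19.5 and 17.5 CPM. All 4-week and 7-week libraries were above all controls, and the 2-week group overlapped with the controls. SDF2L1 rose at 7 weeks by 1.23 ± 0.28 (n = 4 and 4, edgeR adjusted p = 0.0180). The difference was 0.99 ± 0.28 at 4 weeks (edgeR adjusted p = 0.0875) and 0.49 ± 0.28 at 2 weeks (edgeR adjusted p = 0.419). The 7-week call was lost without control replicate 2 (1.25) or control replicate 3 (1.14), and the difference kept its size. Markers of other cells moved in the 7-week comparison: 11 of 12 macrophage, 4 of 4 atrial muscle and 4 of 4 erythroid markers rose and 5 of 6 smooth muscle markers fell. Atrial muscle markers held 0.0444 to 0.481% of counts at 7 weeks and 0.000410 to 0.00137% in controls. The part of these cells in the result for SDF2L1 was not tested.

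HSPA5 (BiP), the main HSP70 of the ER and the protein that holds the sensors silent, had 276, 249, 269 and 237 CPM in controls. It had 283, 326, 401 and 248 CPM after 2 weeks and 360, 413, 366 and 299 CPM after 4 weeks. The 4-week libraries all lay above the controls, and the 2-week group overlapped with them. After 7 weeks it had 345, 145, 299 and 231 CPM, the widest range of the 4 groups, with replicate 2 lowest. The differences against control were 0.27 ± 0.19 at 2 weeks, 0.31 ± 0.19 at 4 weeks and -0.08 ± 0.19 at 7 weeks, none called. The first was 0.05 without 2-week replicate 3, and the last was 0.06 without 7-week replicate 2.

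HYOU1, the nucleotide exchange factor of BiP, had 51.8, 46.4, 46.9 and 45.8 CPM in controls. It had 67.5, 66.1, 86.0 and 66.9 CPM after 2 weeks, 75.9, 82.6, 69.0 and 61.9 CPM after 4 weeks and 69.3, 35, 61.7 and 53.2 CPM after 7 weeks. Every 2-week and 4-week library was above every control, while the 7-week group reached both below and above them. Only 7-week replicate 2 was below, and its CPM were low for genes at large. Against control the difference was 0.58 ± 0.15 at 2 weeks (edgeR adjusted p = 0.0782), 0.44 ± 0.15 at 4 weeks and 0.15 ± 0.15 at 7 weeks. HYOU1 fell from 2 to 7 weeks by 0.42 ± 0.15 on the log2 scale (edgeR adjusted p = 0.0477), and these 2 groups overlapped. That call was lost without 7-week replicate 2 (-0.34), 3 (-0.46) or 4 (-0.42) and without 2-week replicate 1 (-0.44) or 3 (-0.27).

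Of the disulfide isomerases, PDIA6 showed positive differences of 0.41 ± 0.14, 0.43 ± 0.14 and 0.41 ± 0.14 at 2, 4 and 7 weeks, none called by edgeR. Its controls lay between 115 and 166 CPM and its 2-week libraries between 169 and 208 CPM, so that these groups did not overlap. PDIA3 and PDIA4, which also form disulfide bonds in new proteins, ranged from -0.15 to 0.38 over the same comparisons. The lectin chaperones CALR and CANX, which hold glycoproteins during folding, had differences from -0.26 to 0.33. HSP90B1, the HSP90 of the ER, had 0.19, 0.23 and 0.12.

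The secreted ER stress proteins MANF and CRELD2 had differences of 0.28, 0.45 and 0.45 and of 0.39, 0.16 and 0.20. MANF did not overlap with controls at 4 and 7 weeks, since controls lay between 33.5 and 40.4 CPM, the 4-week libraries between 40.9 and 67.8 and the 7-week ones between 41.8 and 58.2. Its smallest adjusted p by edgeR in these 3 comparisons was 0.214. The J-domain partners of BiP, DNAJB9, DNAJB11 and DNAJC3, had differences from -0.07 to 0.38, and none was called.

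None of the 3 sensors was called in a valve comparison. ERN1 differed from control by 0.35 ± 0.23, 0.29 ± 0.23 and 0.11 ± 0.23 at 2, 4 and 7 weeks. EIF2AK3 differed by 0.39 ± 0.17, 0.17 ± 0.17 and -0.00 ± 0.17, and ATF6 by 0.21 ± 0.17, 0.02 ± 0.17 and 0.15 ± 0.17. All diet groups overlapped with the controls in the 3 genes. From 2 to 7 weeks EIF2AK3 differed by -0.39 ± 0.17 (edgeR adjusted p = 0.0896).

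XBP1, the factor activated by IRE1, had 347, 314, 230 and 261 CPM in controls. It had 278, 343, 341 and 359 CPM after 2 weeks, 352, 402, 415 and 293 CPM after 4 weeks and 286, 187, 356 and 322 CPM after 7 weeks. All groups overlapped, and the differences were 0.18, 0.18 and -0.03, each with an SE of 0.16.

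ATF4, the central factor of the integrated stress response, is controlled largely at translation. It had 88.6, 108, 70.8 and 100.3 CPM in controls and 125, 88.7, 139 and 137 CPM after 2 weeks. It had 133, 122, 114 and 81.0 CPM after 4 weeks and 100.5, 158, 131 and 113 CPM after 7 weeks. All groups overlapped with the controls, and the largest difference was 0.48 ± 0.25 at 7 weeks (edgeR adjusted p = 0.228), or 0.23 without 7-week replicate 2.

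DDIT3 (CHOP), which ATF4 induces and which promotes cell death, had 28.6, 33, 25 and 32 CPM in controls. It had 30.8, 24.0, 37.4 and 36.5 CPM after 2 weeks, 34.2, 32.7, 30.1 and 27.2 CPM after 4 weeks and 28.2, 28, 36.6 and 24.4 CPM after 7 weeks. The 4 groups covered nearly the same range. Its differences from control lay between -0.09 and 0.11 with SEs of 0.18, so that ± 2 SE ran from -0.38 to 0.33 at 7 weeks.

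ATF3, an early stress factor of the same family, varied several-fold between libraries of 1 group. It had 31.3, 223, 92.5 and 128 CPM in controls and 281, 53.8, 225 and 86.4 CPM after 2 weeks. It had 40.5, 36.9, 66.9 and 95.5 CPM after 4 weeks and 53.7, 42.1, 43.7 and 47.1 CPM after 7 weeks. In CPM the 7-week libraries lay close together and just below the lowest 2-week library, replicate 2 (53.7 against 53.8). CPM carry no TMM scaling, and the factors were 0.784 for 7-week replicate 2 and 1.08 for 2-week replicate 2. This order therefore need not hold in the test. ATF3 fell from 2 to 7 weeks by 1.84 ± 0.56 on the log2 scale (edgeR adjusted p = 0.0266). It differed by -1.62 ± 0.56 from 2 to 4 weeks (edgeR adjusted p = 0.114) and by -1.35 ± 0.56 between 7 weeks and control (edgeR adjusted p = 0.141). The 2 to 7 week call was lost without 7-week replicate 2 (-1.90), 3 (-1.78) or 4 (-1.84) and without 2-week replicate 1 (-1.43) or 3 (-1.60).

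Immediate early genes such as FOS, which stimulation or the handling of tissue can induce quickly, moved in the same comparison: 6 of 9 fell from 2 to 7 weeks, none rose. FOS had 91.2, 76.5, 683 and 147 CPM at 2 weeks and 163, 32.4, 30.3 and 19.9 CPM at 7 weeks, while in controls it ranged from 9.4 to 30.3 CPM. In controls both genes were highest in replicate 2, with 223 CPM of ATF3 and 30.3 CPM of FOS, and at 7 weeks both were highest in replicate 1. They were not highest in the same library in the other groups. FOS was highest in replicate 3 at 2 weeks and at 4 weeks, and ATF3 in replicates 1 and 4. At 4 weeks FOS was above every control in all libraries but replicate 2, while ATF3 lay within the range of the controls. Immediate early genes held 0.0706% of counts in control replicate 2 and 0.0390 to 0.0480% in the other controls. Their part in the result for ATF3 was not tested.

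In the degradation arm, EDEM1 takes mannose-trimmed glycoproteins out of the folding cycle. It had 89.2, 90.9, 70.6 and 62.1 CPM in controls and 124, 131, 124 and 119 CPM after 2 weeks, when the libraries lay within a narrow range above every control. It had 102, 123, 151 and 84.6 CPM after 4 weeks and 111, 62.4, 83.1 and 100.2 CPM after 7 weeks. EDEM1 fell from 2 to 7 weeks by 0.50 ± 0.15 on the log2 scale (edgeR adjusted p = 0.0253). Its difference from control was 0.67 ± 0.15 at 2 weeks (edgeR adjusted p = 0.0662). It was 0.40 ± 0.15 at 4 weeks and 0.17 ± 0.15 at 7 weeks. The call from 2 to 7 weeks was lost without 7-week replicate 2 (-0.45) or 3 (-0.45) and without 2-week replicate 1 (-0.48) or 3 (-0.45).

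SYVN1 (HRD1), the ubiquitin ligase of ER-associated degradation, had 55.3, 72.2, 50.2 and 59.8 CPM in controls and 66.5, 72.8, 77.2 and 86.3 CPM after 2 weeks. It had 75.6, 81.2, 75.7 and 70.8 CPM after 4 weeks and 63.0, 42.1, 64.8 and 63.4 CPM after 7 weeks. The 7-week libraries lay below all 2-week and 4-week libraries, with replicate 2 lowest. SYVN1 fell from 2 to 7 weeks by 0.39 ± 0.12 on the log2 scale (edgeR adjusted p = 0.0287), and the call was lost without 7-week replicate 2 (-0.34), 2-week replicate 3 (-0.33) or 2-week replicate 4 (-0.34). SEL1L and HERPUD1, the partners of HRD1 in the ER membrane, differed by -0.29 ± 0.16 and -0.09 ± 0.14 in the same comparison and were not called.

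Among the targets of the integrated stress response, SESN2 encodes sestrin 2, an ATF4 target that senses leucine and restrains mTORC1. It had 4.20, 4.54, 6.66 and 5.93 CPM in controls and 2.24, 3.98, 4.04 and 2.90 CPM after 2 weeks. It had 12.1, 7.46, 8.90 and 7.85 CPM after 4 weeks and 8.55, 8.75, 11.5 and 9.69 CPM after 7 weeks. The 2-week libraries were all below and the 4-week and 7-week libraries all above the controls. From 2 to 4 weeks SESN2 rose by 1.33 ± 0.26 (edgeR adjusted p = 0.0125), and 4.36% of all genes passed the test in that comparison, 3.14% as higher. From 2 to 7 weeks it rose by 1.56 ± 0.27 (edgeR adjusted p = 0.00158). Against control the difference was -0.73 ± 0.27 at 2 weeks (edgeR adjusted p = 0.171). It was 0.60 ± 0.26 at 4 weeks and 0.83 ± 0.26 at 7 weeks (edgeR adjusted p = 0.0630). The call from 2 to 7 weeks held without any 1 of the 8 libraries, with differences from 1.43 to 1.74. That from 2 to 4 weeks was lost without 2-week replicate 1 (1.21), and also in a fit on the libraries of those 2 groups alone (1.33) and with the cardiomyocyte score as covariate (1.04 ± 0.28, edgeR adjusted p = 0.0750). All 12 macrophage markers rose from 2 to 4 weeks as well, and 18S ribosomal RNA (RN18S) held 1.36 to 1.97% of counts at 2 weeks and 0.282 to 0.516% at 4 weeks. Their part in the result for SESN2 was not tested. No other member passed from 2 to 4 weeks, where 3 of 33 had an unadjusted p under 0.05, beside 3147 of 15973 genes. There DESeq2 called ATF3 as lower besides SESN2.

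TRIB3, a pseudokinase that ATF4 and CHOP induce and that damps their signal, was low. It had 2.07, 0.832, 0.666 and 1.71 CPM in controls and 1.32, 1.73, 0.587 and 1.35 CPM after 2 weeks. It had 2.32, 3.04, 3.68 and 0.987 CPM after 4 weeks and 2.48, 4.73, 3.05 and 3.88 CPM after 7 weeks. The 7-week libraries lay above all controls and all 2-week libraries. TRIB3 rose from 2 to 7 weeks by 1.57 ± 0.46 (edgeR adjusted p = 0.0230), and its difference from control at 7 weeks was 1.45 ± 0.46 (edgeR adjusted p = 0.0661). The call was lost without 7-week replicate 2 (1.27) or 4 (1.54) or 2-week replicate 3 (1.37).

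VLDLR, a lipoprotein receptor that is abundant in heart muscle and that the PERK arm can induce, had 129, 53.0, 299.5 and 139 CPM in controls. It had 22.9, 70.9, 19.0 and 23.4 CPM after 2 weeks, 187, 73.8, 25.9 and 135 CPM after 4 weeks and 62.6, 91.0, 119 and 203 CPM after 7 weeks. The 2-week libraries were the lowest, except for replicate 2, which lay within the range of the other groups. VLDLR rose from 2 to 7 weeks by 1.87 ± 0.64 (edgeR adjusted p = 0.0408), and at 2 weeks its difference from control was -2.29 ± 0.65 (edgeR adjusted p = 0.0907), or 0.26 ± 0.48 with the cardiomyocyte score as covariate. The call from 2 to 7 weeks was lost without 7-week replicate 2 (1.91), 3 (1.91) or 4 (1.5) and without 2-week replicate 1 (1.75), 3 (1.73) or 4 (1.73).

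The share of cardiomyocyte counts in the valve libraries moved with VLDLR in part. At 7 weeks replicate 2 had the largest share of all valve libraries, with less VLDLR in CPM than replicates 3 and 4. CPM carry no TMM scaling, and the factors were 0.784 for replicate 2 and 1.04 for replicate 3, so its order against replicate 3 need not hold after scaling. The cardiomyocyte share was 2.00, 0.952, 4.25 and 2.43% in controls, 0.156, 0.688, 0.233 and 0.341% after 2 weeks, 2.90, 1.03, 0.307 and 1.60% after 4 weeks, and 0.994, 4.54, 1.46 and 3.38% after 7 weeks. In myocardium itself VLDLR ranged from 318 to 815 CPM, and in aorta, which held 0.0691 to 0.159% of cardiomyocyte counts, from 7.39 to 13.5 CPM. With the cardiomyocyte score of each library as a covariate, the difference of VLDLR from 2 to 7 weeks was -0.35 ± 0.44 (edgeR adjusted p = 0.737). The shares at 2 weeks overlapped with neither those of controls nor those at 7 weeks. In both comparisons that fit therefore cannot part heart muscle from diet. The panels of marker shares against members show these values by library.

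**Figure D3:**
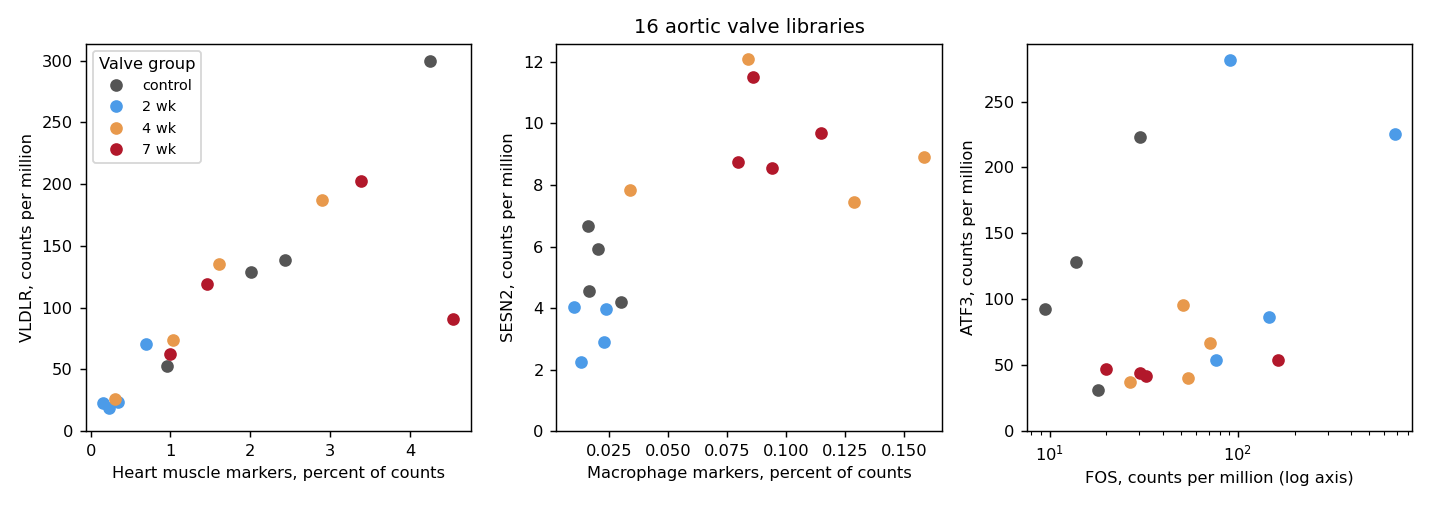
Each point is 1 of the 16 valve libraries, coloured by group; panels plot VLDLR against the percent of counts in 14 heart muscle markers, SESN2 against the percent in 12 macrophage markers, and ATF3 against FOS (log axis), all levels in CPM. VLDLR is highest (299.5) in the control library with 4.25% heart muscle counts, and not in the 7-week library with the largest share, 4.54%. The 8 libraries at 4 and 7 weeks hold both the 8 highest SESN2 levels and the 8 highest macrophage shares.

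The other targets were not called in valve. ASNS, the asparagine synthetase, differed by 0.46 ± 0.26 at 2 weeks and by -0.14 ± 0.26 at 7 weeks. PHGDH and PSAT1, the first steps of serine synthesis, differed by -0.41 ± 0.33 and -0.16 ± 0.54 at 7 weeks, with PHGDH between 14.4 and 45.6 CPM in controls alone. CHAC1, which degrades glutathione, lay between 0.256 and 1.23 CPM in all valve libraries, and its SEs of 0.58 to 0.61 leave only large differences detectable. PPP1R15A (GADD34), which reverses eIF2 alpha phosphorylation, differed by 0.06, -0.22 and -0.28, each with an SE of 0.21.

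From 2 to 7 weeks 26.7% of all genes passed the test (14.5% higher and 12.2% lower), so the 7 of 33 members (3 and 4) were no larger a share than that background. A further 4 members had an unadjusted p under 0.05 (SDF2L1, CANX, EIF2AK3 and ASNS). That made 11 of 33 members, beside 6510 of 15973 genes. DESeq2 called 9 members, adding SDF2L1 and CANX. The median was -0.21 over members and 0.02 over all genes, and 26 of 33 members were negative. That median was -0.08 without 2-week replicate 3 and -0.09 with the cardiomyocyte score as covariate, where 21 of 33 were negative and the chaperone median was 0.04. By role, the degradation genes had a median of -0.34 with 4 of 4 negative, the sensors -0.24 with 3 of 3, the chaperones -0.14 with 12 of 14 and the targets -0.01 with 4 of 8. Without 7-week replicate 2, or without 2-week replicate 3, 1 member was called, and without 7-week replicate 1, 11 were. Counts of 3 were found without 7-week replicate 3, 7-week replicate 4 or 2-week replicate 1.

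Other cells differed between the 2 times as well. All 12 macrophage markers rose from 2 to 7 weeks, from 0.00999 to 0.0236% of counts to 0.0797 to 0.115%, as did 11 of 14 cardiomyocyte markers and 4 of 4 erythroid markers. All 6 smooth muscle markers fell, from 2.71 to 4.20% to 0.640 to 1.37%. In controls the macrophage share was 0.0162 to 0.0299%, and no macrophage marker was at 0 in every library of a group. With the cardiomyocyte score as covariate no member was called from 2 to 7 weeks, while 396 of 15973 genes were, against 4261 without it. The cardiomyocyte shares of the 2 groups did not overlap, so this fit cannot part heart muscle from time on the diet. The differences were then 1.10 ± 0.34 for SESN2, 1.44 ± 0.70 for TRIB3, -1.0 ± 0.88 for ATF3, -0.22 ± 0.20 for EDEM1, -0.31 ± 0.18 for SYVN1 and -0.32 ± 0.22 for HYOU1. Against control at 7 weeks, the same fit called SDF2L1 (1.23 ± 0.29) and SESN2 (0.86 ± 0.24) as higher. The part of macrophages and smooth muscle in these results was not tested.

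**Figure D4:**
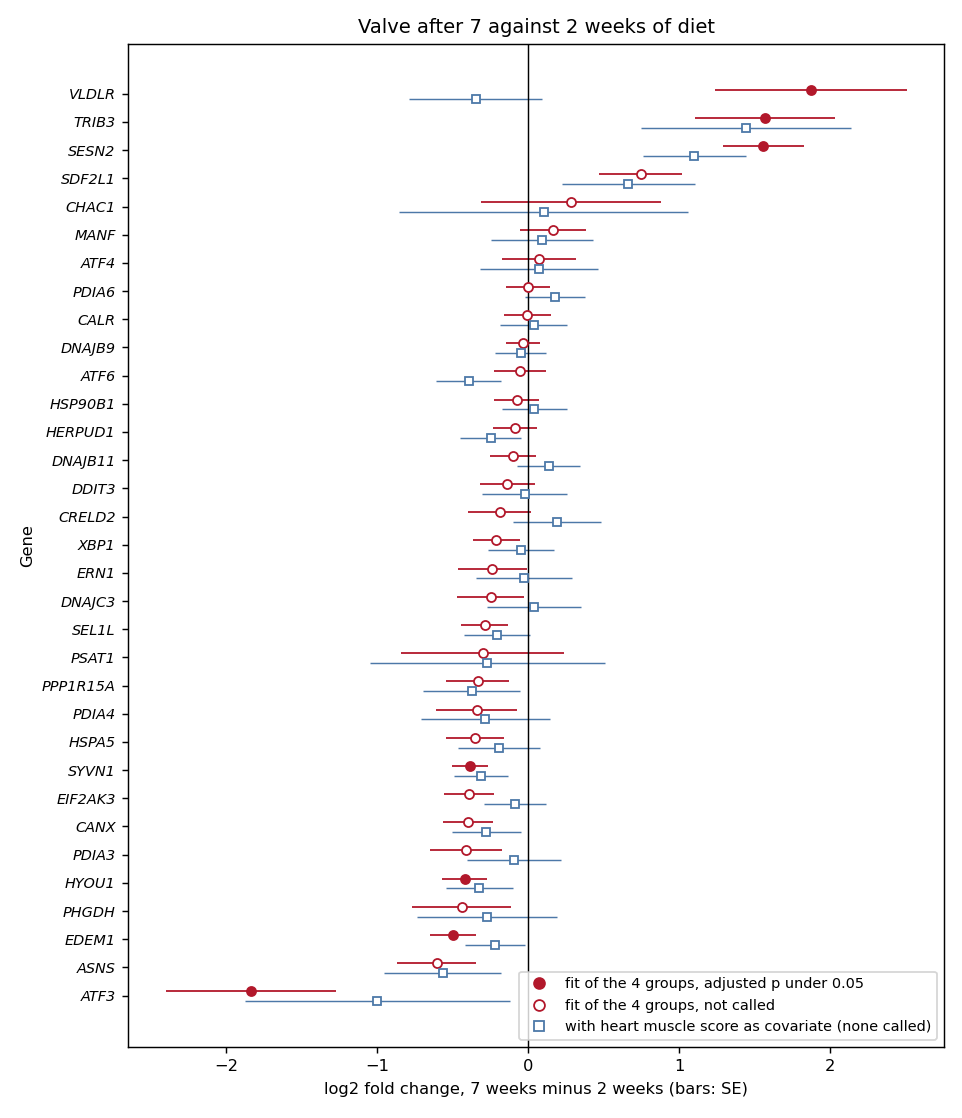
Log2 fold change from 2 to 7 weeks of diet (horizontal axis) of the 33 tested members (rows), with SE bars; circles are the fit on the 4 groups (filled where edgeR adjusted p was under 0.05) and squares the fit with the heart muscle score as covariate. VLDLR lies at 1.87 without and at -0.35 with the covariate, while SESN2 lies at 1.56 and 1.10.

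From 4 to 7 weeks no member passed, and 0.100% of all genes did. None of the 33 had an unadjusted p under 0.05, beside 1921 of 15973 genes, and DESeq2 called none. The median was -0.15 with 22 of 33 negative. HSPA5 differed by -0.39 ± 0.19 and PDIA4 by -0.49 ± 0.27. SYVN1, at -0.25 ± 0.12, was the only member whose groups did not overlap, beside 2.72% of all genes that were lower in the same way.

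A further 87 genes of the 2 pathways were listed from general knowledge, and 86 were in the tables, of which 84 were tested in valve. At 2 weeks none passed by edgeR against control, and 17 of 84 had an unadjusted p under 0.05, beside 2622 of 15973 genes. At 4 weeks 2 of 84 rose, beside 2.00% of all genes called: DDIT4 (REDD1), an mTORC1 inhibitor under ATF4, by 1.64 ± 0.35 and CEBPB, a partner of ATF4 and CHOP, by 0.92 ± 0.17. At 7 weeks 4 of 84 rose, beside 5.20% of all genes, led by DDIT4 with 1.38 ± 0.35, PYCR1 of proline synthesis with 1.26 ± 0.35 and SHMT2 of mitochondrial one-carbon metabolism with 0.88 ± 0.24. From 2 to 4 weeks 2 of 84 rose, DDIT4 (2.10 ± 0.35) and SHMT2 (0.90 ± 0.24), beside 3.14% of all genes.

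From 2 to 7 weeks 13 of the 84 passed, 7 higher and 6 lower, beside the 26.7% of all genes. DDIT4 rose by 1.84 ± 0.35, GADD45A, a stress-induced growth arrest gene, by 1.83 ± 0.28, and GDF15, a secreted stress signal, by 1.73 ± 0.52. CREB3L2, an ER-anchored factor that raises secretory capacity, fell by 1.64 ± 0.42 on the log2 scale. WFS1, the wolframin of the ER membrane, fell by 1.17 ± 0.24, and EDEM2, a mannosidase of the degradation arm, fell by 0.71 ± 0.18. From 4 to 7 weeks none of the 84 passed by edgeR, with 4 at an unadjusted p under 0.05, beside 1921 of 15973 genes.

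In the ascending aorta no member passed the test, and 0.159% of all genes did. At an unadjusted p under 0.05 were 4 of 31 members, beside 1768 of 14435 genes. DESeq2 called ATF6 as higher. ATF6 had 37.4, 33 and 32.7 CPM in controls and 49.4 and 46.2 CPM on the diet, a difference of 0.52 ± 0.11 (edgeR adjusted p = 0.174). ASNS had 2.26, 4.10 and 3.16 CPM in controls and 5.82 and 5.86 CPM on the diet, a difference of 0.92 ± 0.29. PHGDH had 12.6, 8.82 and 7.54 CPM in controls and 4.60 and 4.33 CPM on the diet, a difference of -1.06 ± 0.26. In these 3 genes the groups did not overlap, as in 10 of 31 members, and with groups of 3 and 2 that held for 33.8% of all genes. DDIT3 differed by -0.44 ± 0.17. Of the markers, 3 of 4 atrial muscle and 2 of 14 cardiomyocyte genes were called higher in diet aorta, and none of either list lower. Atrial muscle markers held 0.0112 and 0.0103% of counts there and 7.82e-05 to 0.000199% in control aorta. The part of muscle in these differences was not tested.

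The other main genes of the response were close to their controls in aorta. HSPA5 had 185, 278 and 187 CPM in controls and 234 and 221 CPM on the diet (0.12 ± 0.19). XBP1 had 189, 201 and 154 CPM and 202 and 188 CPM (0.16 ± 0.13), and ATF4 had 105, 108 and 96.0 CPM and 105 and 101 CPM (0.05 ± 0.10). The diet libraries of all 3 lay within or next to the range of the controls. ATF3 had 237, 662 and 63.6 CPM in controls and 329 and 289.9 CPM on the diet, and the sign of its difference depended on the library left out. It was 0.01 ± 0.81 with all libraries, 1.09 without control replicate 2 and -0.47 without control replicate 3. No gene among the 82 others tested passed by edgeR, with 9 at an unadjusted p under 0.05, beside 1768 of 14435 genes.

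In left ventricular myocardium no member passed, beside 0.0848% of all genes, and DESeq2 called ATF3 as higher. At an unadjusted p under 0.05 were 3 of 31 members, beside 1252 of 14151 genes. ATF3 had 6.66, 11.2 and 5.70 CPM in controls and 46.2, 13.1 and 26.3 CPM on the diet, all above the controls. Its difference was 2.04 ± 0.54 (edgeR adjusted p = 0.258), and 1.37 without diet replicate 1. That library held 7.54% of its counts in RN18S, against 1.16 to 2.22% in the other 5, and was the lowest diet library in 18 of 30 members. TRIB3 had 0.860, 0.873 and 0.881 CPM in controls and 1.44, 1.41 and 1.56 CPM on the diet (0.88 ± 0.37, edgeR adjusted p = 0.542). SDF2L1 differed by -0.61 ± 0.41, with 4.73, 4.90 and 14.6 CPM in controls and 4.62, 4.23 and 5.10 CPM on the diet.

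Control replicate 3 stood apart in several of these genes in myocardium. DDIT3 had 11.3 and 11.9 CPM in the other controls, 23.5 CPM in that library and 11.7, 11.3 and 12.0 CPM on the diet. ATF4 had 53.4, 54.4 and 103 CPM in controls and 48.8, 47.6 and 45.5 CPM on the diet. HSPA5 had 218, 261 and 150 CPM and 133, 212 and 163 CPM, and XBP1 79.2, 86.3 and 69.6 CPM and 79.1, 58.2 and 78.5 CPM. Without control replicate 3 the difference of ATF4 went from -0.40 to -0.13 and that of DDIT3 from -0.25 to 0.07. No gene among the 82 others tested passed by edgeR, with 4 at an unadjusted p under 0.05, beside 1252 of 14151 genes.

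The diet effects of the tissues were set against each other directly. The 7-week valve effect minus the myocardium effect passed for no member and for 0.639% of all genes. Its unadjusted p was under 0.05 for 4 of 33 members and 2517 of 16581 genes, and DESeq2 called ATF3 and SDF2L1. It was -3.40 ± 0.88 for ATF3 (edgeR adjusted p = 0.0816) and 1.81 ± 0.48 for SDF2L1 (edgeR adjusted p = 0.0890). For HSPA5 it was 0.12 ± 0.33 and for XBP1 -0.06 ± 0.28. The mean valve effect over the 3 times minus the aorta effect passed for no member by edgeR or DESeq2, and by edgeR for 0.0474% of all genes. Its unadjusted p was under 0.05 for 1548 of 16866 genes and for 1 of 33 members. That member was SDF2L1, at 1.11 ± 0.46 (edgeR adjusted p = 0.505).

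Larger differences lay between the tissues of control animals, as they did for genes at large. These differences come from fits with TMM scaling, whose factors differ between tissues, so they can depart from the ratio of CPM. Against control myocardium, 14 of 33 members differed in control valve, 11 higher and 3 lower, beside 44.6% of all genes (23.2% higher and 21.4% lower). In control aorta 16 of 32 differed, 12 higher and 4 lower, beside 52.3% of all genes (25% and 27.3%). Between control valve and control aorta 8 of 33 differed, 5 higher in valve and 3 lower, beside 25.3% of all genes (14.2% and 11.2%). The comparisons share their control groups in pairs, and whether the tissues shared a sequencing run is not stated.

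Of the chaperones, HSPA5, HSP90B1, CALR, CANX, PDIA4, DNAJB9, DNAJB11, DNAJC3, SDF2L1 and MANF were called in none of the 3 comparisons. HSPA5 was -0.10 ± 0.24 in valve minus myocardium and -0.27 ± 0.26 in aorta minus myocardium. Among the folding enzymes, PDIA3 was higher than in myocardium in valve (0.93 ± 0.26) and in aorta (0.71 ± 0.22), and PDIA6 (0.55 ± 0.15 and 0.62 ± 0.14) and CRELD2 (0.79 ± 0.24 and 1.15 ± 0.23) likewise. HYOU1 was higher in aorta than in myocardium (0.53 ± 0.19) and lower in valve than in aorta (-0.49 ± 0.16). Without aorta control replicate 2 the call of PDIA3 in aorta (0.48) and both calls of HYOU1 (0.34 and -0.30) were lost. The call of HYOU1 between aorta and myocardium was lost also without myocardium control replicate 1 (0.51) or 3 (0.42), and that between valve and aorta without valve control replicate 1 (-0.52), 2 (-0.44), 3 (-0.51) or 4 (-0.51). That of CRELD2 in valve was lost without myocardium control replicate 1 (0.64) or 2 (0.70).

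Of the sensors, EIF2AK3 was higher than in myocardium in valve (1.03 ± 0.19) and in aorta (1.19 ± 0.20). ATF6 was lower in valve than in myocardium (-0.61 ± 0.23), a call lost without valve control replicate 2 (-0.53) or 4 (-0.53) or myocardium control replicate 1 (-0.47) or 2 (-0.44). ERN1 was lower in valve than in aorta (-0.72 ± 0.23), a call lost without valve control replicate 2 (-0.61) or 4 (-0.70) or aorta control replicate 2 (-0.51).

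XBP1 was ordered over all 3 tissues, with valve above aorta (0.52 ± 0.16) and aorta above myocardium (0.90 ± 0.22). The difference between valve and myocardium was 1.48 ± 0.21. The step from valve to aorta was lost without valve control replicate 1 (0.43) or aorta control replicate 1 (0.54) or 3 (0.42). ATF3 was higher than in myocardium in valve (3.50 ± 0.69) and in aorta (5.03 ± 0.83), and the difference between valve and aorta was -1.60 ± 0.67 (edgeR adjusted p = 0.0860). Immediate early genes lay at 0.0390 to 0.0706% of counts in control valve, 0.0686 to 0.127% in control aorta and 0.0135 to 0.0171% in control myocardium, and their part was not tested. DDIT3 was higher than in myocardium in aorta (1.02 ± 0.23) and in valve (0.59 ± 0.22). The valve call of DDIT3 was lost without valve control replicate 2 (0.58) or 4 (0.52) or myocardium control replicate 1 (0.45) or 2 (0.46), and went to 0.93 without myocardium control replicate 3. ATF4 differed in none of the 3, with -0.31 ± 0.24, 0.04 ± 0.26 and 0.29 ± 0.20.

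In the degradation arm, EDEM1 was lowest in myocardium, with 0.86 ± 0.18 in valve and 1.36 ± 0.17 in aorta above it, and was lower in valve than in aorta (-0.56 ± 0.15, or -0.49 and not called without aorta control replicate 2). HERPUD1 was the reverse, lower than in myocardium in valve (-0.55 ± 0.18) and in aorta (-1.02 ± 0.22). The valve call of HERPUD1 was lost without valve control replicate 2 (-0.46) or myocardium control replicate 1 (-0.45) or 2 (-0.39). SEL1L and SYVN1 were not called. With the animal as a block, over the 5 animals that gave both tissues (2 control and 3 diet), SYVN1 was called in control valve against control myocardium (0.32 ± 0.13, limma adjusted p = 0.0483).

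The serine and asparagine synthesis targets of ATF4 held the largest tissue differences after VLDLR and ATF3. PHGDH had 34.8, 45.6, 14.4 and 37.3 CPM in control valve, 12.6, 8.82 and 7.54 CPM in control aorta and 1.5, 1.01 and 3.70 CPM in control myocardium, with no overlap between the tissues. PHGDH was 3.63 ± 0.44 higher in valve than in myocardium (edgeR adjusted p = 3.19e-06), 1.62 ± 0.36 higher in valve than in aorta and 1.96 ± 0.39 higher in aorta than in myocardium. PSAT1 had 7.91, 6.14, 2.37 and 5.20 CPM in valve, 1.13, 0.310 and 0 CPM in aorta and 0.860, 0.201 and 0.294 CPM in myocardium. It was 3.17 ± 0.71 higher in valve than in myocardium and 3.37 ± 0.82 higher than in aorta, and that value went to 4.76 without aorta control replicate 1. ASNS was 1.95 ± 0.38 higher in valve than in myocardium and 1.36 ± 0.45 higher in aorta than in myocardium. The aorta call of ASNS was lost without aorta control replicate 2 (1.13) or 3 (1.35) or myocardium control replicate 2 (1.08) or 3 (1.15), and its value went to 2.04 without myocardium control replicate 1.

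VLDLR had the widest range over tissues, with 691, 815 and 318 CPM in control myocardium against 13.5, 7.39 and 10.6 CPM in control aorta. The difference was -6.20 ± 0.45 in aorta minus myocardium (edgeR adjusted p = 9.95e-07), and in valve, which held cardiomyocyte counts, VLDLR was lower than in myocardium (-2.34 ± 0.63) and higher than in aorta (3.79 ± 0.73). TRIB3 was higher in valve than in aorta (1.61 ± 0.56) and lower in aorta than in myocardium (-1.45 ± 0.46). The first call of TRIB3 was lost without valve control replicate 1 (1.33) or 4 (1.42) or aorta control replicate 1 (1.41) or 3 (1.38), the second without aorta control replicate 1 (-1.25) or 3 (-1.23). SESN2 was lower in aorta than in myocardium (-1.42 ± 0.51), a call lost without aorta control replicate 1 (-1.5) or 3 (-1.15) or myocardium control replicate 1 (-1.34) or 2 (-0.94). PPP1R15A was higher in aorta than in myocardium (0.75 ± 0.18).

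**Figure D5:**
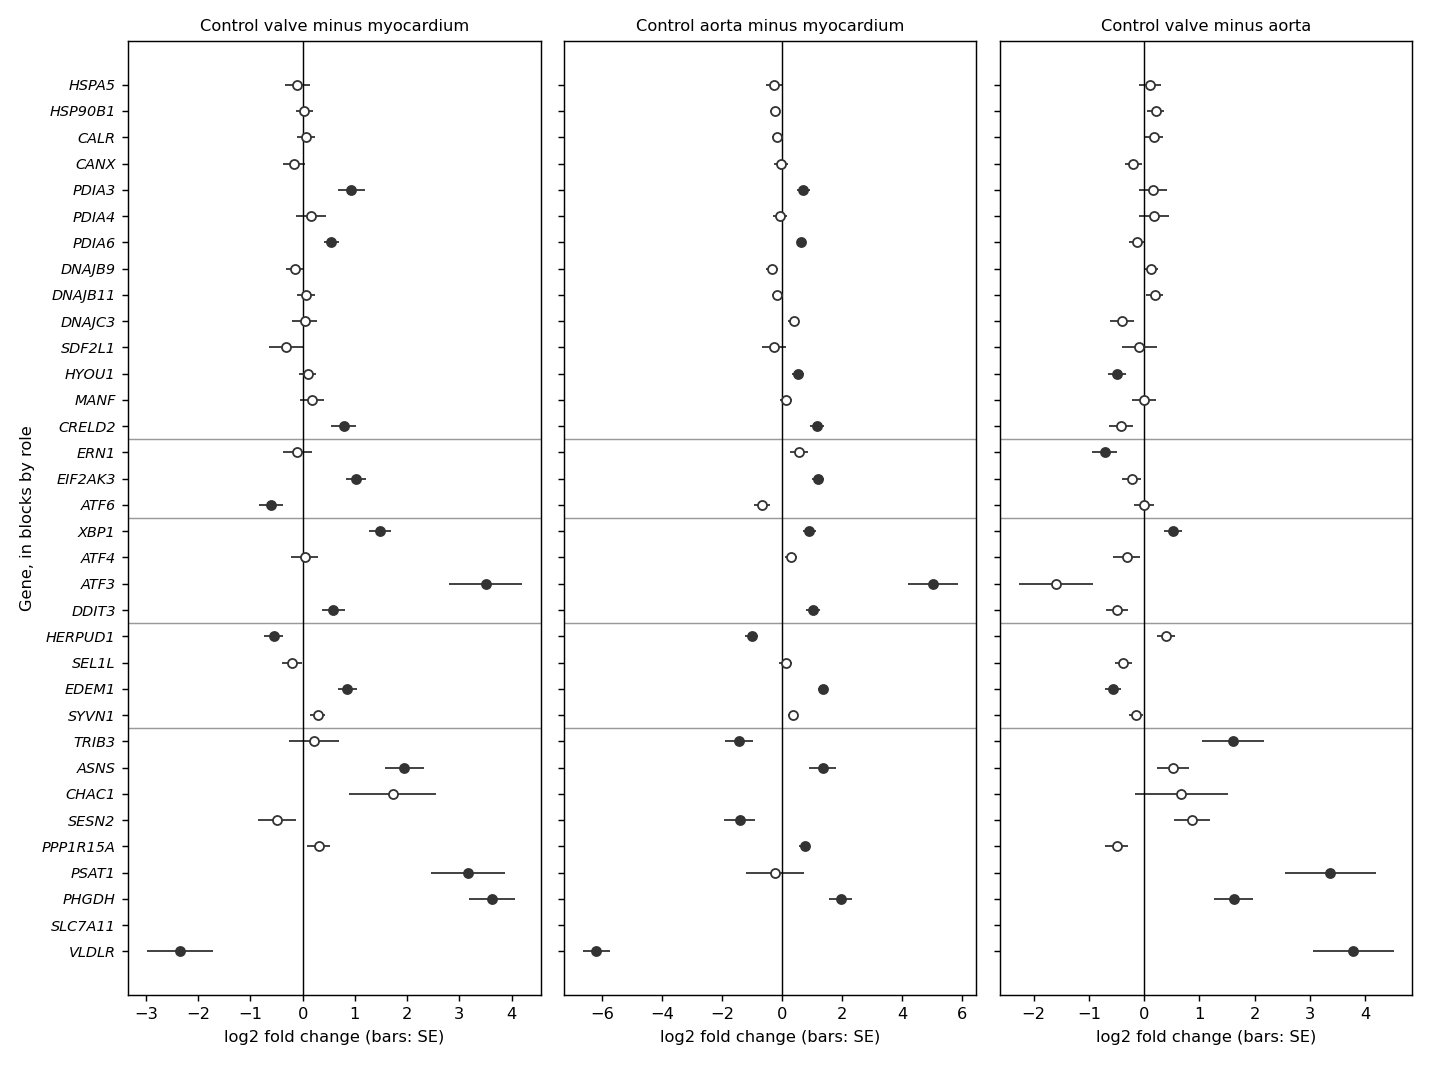
Log2 fold change between tissues of control animals (horizontal axes, with SE bars) of the 34 members (rows, in blocks by role), for valve minus myocardium, aorta minus myocardium and valve minus aorta; filled points have edgeR adjusted p under 0.05. VLDLR reaches -6.20 in aorta minus myocardium, while HSPA5 lies between -0.27 and 0.11 in all 3 panels.

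Of the other pathway genes, 42 of 84 differed between control valve and myocardium (31 higher and 11 lower), beside 44.6% of all genes. Between control aorta and myocardium 39 of 83 differed (28 and 11), beside 52.3%, and between control valve and aorta 20 of 85 (13 and 7), beside 25.3%. The glycine transporter SLC6A9, induced by ATF4, was 2.89 ± 0.31 higher in valve than in myocardium and 3.38 ± 0.31 higher in aorta than in myocardium. GADD45A was lower than in myocardium in valve (-1.62 ± 0.27) and in aorta (-3.50 ± 0.21) and higher in valve than in aorta (1.82 ± 0.31). MTHFD2, the mitochondrial one-carbon enzyme that ATF4 induces, was higher in valve than in aorta (1.29 ± 0.32) and lower in aorta than in myocardium (-2.80 ± 0.29).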

How the data were processed

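Bulk RNA of 16 valve, 5 aorta and 6 myocardium libraries was sequenced, and the authors deposited expected counts per gene, as the files show, in 1 table per tissue and a second valve table without 346 genes taken as myocardial (none a member). The submitters' processing notes list STAR 2.7.8a, RSEM 1.3.3, Trim Galore 0.6.6, FastQC 0.11.9 and edgeR 3.42.4. Build, annotation and use of strand in counting were not given in the labels or tables, so reads antisense to a gene cannot be told apart and no coordinates are given. Of the values, 10.1% (valve), 9.39% (aorta) and 9.54% (myocardium) were not whole, and all were rounded. RSEM shares reads between similar sequences, so pseudogenes and near copies can add to or take from a member's count.

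Counts were fitted in R 4.3.3 with edgeR 4.0.16: filterByExpr by group (minimum count 10, minimum total 15), TMM scaling, and the F test of a quasi-likelihood model, with p-values adjusted by Benjamini-Hochberg across all genes in a fit. The 16 valve libraries shared 1 fit, aorta and myocardium had 1 each, and comparisons between tissues used joint fits of 2 tissues. The steps were tested on simulated counts with 200 changed genes. Alternatives were DESeq2 1.42.0, RLE scaling, no filter, the second valve table, blocks by replicate number or animal (limma 3.58.1), a cardiomyocyte score as covariate, fits on only the libraries compared, and leaving out each library. Members and lists were chosen with earlier results of these data known. All 34 members are described. Values per library are given for members called in a diet comparison and for HSPA5, XBP1, ATF4, DDIT3 and ATF3. Those of PHGDH, PSAT1, and in aorta and myocardium of ATF6, ASNS, TRIB3 and SDF2L1 were added after the values were seen. Of the other pathway genes, up to 3 called in each direction are named per comparison.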

Additional observations from a re-analysis of the deposited data

Results flagged for a closer look

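In a group of 4 libraries, a library was picked out when its gap to the nearest other library exceeded the 95% critical value of Dixon's test as a share of the group's range, which chance gives in about 1 of 20 groups. Over the members, 11 of 136 pairs of a gene and a valve group met this, in CPM without TMM scaling. The share over all genes was not computed, and genes of 1 library are not independent of each other. Of them 4 fall on 2-week replicate 3, with PDIA4 at 212 CPM (others 109 to 126), HSP90B1 at 637 CPM (others 496 to 512), HYOU1 at 86.0 CPM (others 66.1 to 67.5) and DNAJB11 at 36 CPM (others 29.4 to 30.1). These are chaperones and a folding enzyme of the ER, and FOS was highest in the same library. A link between them was not tested.

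At 2 weeks VLDLR stood at 70.9 CPM in replicate 2 (others 19.0 to 23.4), the library with the largest share of cardiomyocyte counts in its group. SYVN1 at 7 weeks stood at 42.1 CPM in replicate 2 (others 63.0 to 64.8), and PHGDH at 35.3 CPM in replicate 1 (others 20.8 to 22.1). Replicate 2 had a TMM factor of 0.784, against 0.983 to 1.13 in the other 7-week libraries, so its CPM were low for genes at large. Whether SYVN1 stands apart there after that scaling was not tested. At 4 weeks HSP90B1 stood at 719 CPM in replicate 2 (others 573 to 584) and CANX at 245 CPM in replicate 1 (others 290.2 to 296). Among controls CANX stood at 192 CPM in replicate 4 (others 253 to 264) and DNAJC3 at 24.4 CPM in replicate 1 (others 14.3 to 15.4).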

How the results depend on the processing

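Besides leaving out libraries, 57 of 71 recomputed counts of members called stayed within 1.5 times. For DESeq2 the share of all genes called is not given beside these counts. DESeq2 gave 3 instead of 0 (2 weeks against control), 2 instead of 0 (4 weeks), 4 instead of 1 (7 weeks), 2 instead of 1 (4 against 2 weeks), 1 instead of 0 in aorta, 1 instead of 0 in myocardium and 2 instead of 0 for the 7-week valve effect minus the myocardium effect. The cardiomyocyte covariate gave 2 instead of 1 (7 weeks against control), 0 instead of 1 (4 against 2) and 0 instead of 7 (7 against 2), and turned VLDLR from 1.87 to -0.35 there. Fits on only the libraries compared gave 1 instead of 0 (2 weeks against control) and 0 instead of 1 (4 against 2). Without a filter on low counts valve against aorta gave 5 instead of 8. Leaving out 1 library gave 0 to 2 members at 2 and at 4 weeks, 0 to 3 at 7 weeks, 0 to 2 for 4 against 2 weeks, 0 for 7 against 4, 1 to 11 for 7 against 2, 0 in aorta and in myocardium, 5 to 8, 10 to 16 and 13 to 19 for valve against aorta, valve against myocardium and aorta against myocardium, and 0 to 1 and 0 for the differences of diet effects. Where that leaves 1 diet aorta, it is assumed to vary like the others. RLE scaling and the second valve table changed no count by over 1.5 times. Replicate numbers did not pair the libraries: same-numbered valve libraries correlated between -0.43 and 0.17 (4 of 24 pairs over 0.1), with -0.11 and -0.01 in aorta and -0.24 to 0.07 in myocardium. With the replicate number as a block, 7 against 2 weeks gave 2 members (SESN2 and TRIB3) instead of 7, and no other count moved. Valve and myocardium of 1 animal correlated between 0.016 and 0.51 (4 of 5 pairs over 0.1), and with the animal as a block 15 members differed between control valve and myocardium instead of 14, with SYVN1 added. The other joint fits share at most 1 animal, so that block was not run there. Depth limits CHAC1, TRIB3 in aorta, PSAT1 outside the valve and SLC7A11.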
